A study of Mus musculus with 44 samples.

Results

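Slc30a10, Slc39a14 and Slc39a8 are 3 transporters that carry manganese across cell membranes, and their RNA was followed in brain, liver and small intestine of animals given manganese (Mn) or vehicle. The members were chosen by name, as the 3 gene entries whose Ensembl identifier maps to these symbols, out of 55416 gene entries counted in each library. They are Slc30a10 (ENSMUSG00000026614.8), Slc39a14 (ENSMUSG00000022094.16) and Slc39a8 (ENSMUSG00000053897.16), and all 3 passed the low-count filter in every comparison below. The 44 libraries came from total homogenates of tissues of 15 C57BL/6J mice of about 2 months. The 7 vehicle animals (3 females, 4 males) bear the numbers 2572 to 2574 and 2627 to 2630. The 8 Mn animals (3 females, 5 males) bear the numbers 2575 to 2578 and 2600 to 2603, and were dosed daily with hydrated manganese chloride at about 50 mg per kg. All animals share the one inbred strain, and neither group carries a transgene or deletion in the labels. Each tissue had 7 vehicle and 8 Mn libraries, except small intestine, where Mn animal 2601 has none here and 7 remain. Which stretch of intestine or region of brain was taken is not given in the labels.

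Manganese is an essential metal that is toxic to the brain in excess, and the body holds it in balance mainly by excretion through liver and gut. SLC30A10, a member of the ZnT (SLC30) family, is a cell-surface exporter that moves Mn out of hepatocytes and enterocytes toward bile and gut lumen. SLC39A14 (ZIP14) and SLC39A8 (ZIP8), of the ZIP (SLC39) family, are importers. SLC39A14 takes Mn from blood into the liver and also works on the blood-facing side of enterocytes, while SLC39A8 is known for taking Mn back from bile. In people, loss of SLC30A10 or SLC39A14 raises Mn in blood and brain, and loss of SLC39A8 lowers it in blood. Excess Mn is known to stabilise hypoxia-inducible factors (HIF), and SLC30A10 is known as one of their targets.

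The 250 bases before the start of Slc30a10 are shown because the text below reads HIF target genes beside the transporter. They come from RefSeq on build GRCm38.p6 (chr1:185454598-185454847, plus strand), which is not the GRCm39 build of the counts. Capitals mark matches, on either strand, to ACGTG, the core that HIF binds, and to TGCNCNC. The latter is a wider form of TGCRCNC (R is A or G), the core of metal response elements.
Slc30a10: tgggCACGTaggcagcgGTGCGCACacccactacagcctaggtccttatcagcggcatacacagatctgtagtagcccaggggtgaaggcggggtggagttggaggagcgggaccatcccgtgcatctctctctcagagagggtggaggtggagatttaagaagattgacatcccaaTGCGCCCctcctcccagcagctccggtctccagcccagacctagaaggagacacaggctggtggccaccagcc
The first run of capitals is the single ACGTG match, read on the minus strand, and GCGTG, the other form of that core, has 0 matches. TGCNCNC matches 3 times, and 2 of these matches lie on opposite strands and overlap in the run GTGCGCAC. Of 32851 mouse promoter windows of the same length, 38.6% hold ACGTG or GCGTG and 44.4% hold TGCNCNC, and 4.65% hold the latter at least 3 times. Slc39a8 has 2 such windows in RefSeq, one with 0 matches and one with 2 of ACGTG, 1 of GCGTG and 1 of TGCNCNC. The share of windows holding the narrower TGCRCNC was not counted. All these matches are letters in a window and not measured binding sites. The sequence of Slc39a14 is not shown.

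Reads assigned to genes numbered 1796385 to 3798810 per library, and levels are given as CPM, the counts divided by this total and scaled to a common size. The 3′ TagSeq method gives about one tag per transcript end, so counts do not grow with transcript length, and CPM of different genes is compared below on that scale. Marker genes fitted the labelled tissues: 8 neuron markers summed to 4657 CPM or more in every brain library and to at most 169 CPM elsewhere, and the lowest sums of 12 hepatocyte markers in liver and 12 enterocyte markers in small intestine were 53272 and 16065 CPM. Several libraries also held reads of another tissue. The share of another tissue's profile in a library was estimated from genes read almost only in that tissue. It reached 5.16% and 2.68% of the small intestine profile in the brains of the Mn females 2576 and 2600, and 2.03% to 3.10% of the liver profile in the brains of the 5 Mn males. The 7 vehicle brains and that of Mn 2575 held at most 0.117% of liver and 0.0528% of small intestine. Vehicle liver 2630 held 5.05% of the small intestine profile, against 0.0258% to 1.5% in the other livers. The brain profile made up 1.71% to 2.78% of the livers of the males 2601, 2602, 2603, 2627 and 2630 and 2.05% to 2.54% of the small intestines of the last 4, against at most 0.652% and 0.799% in the other animals. In liver and in small intestine the vehicle and Mn libraries bear separate runs of library numbers (17 to 23 and 25 to 32 in liver, 1 to 7 and 9 to 15 in small intestine), and treatment and library number cannot be told apart there. In brain the vehicle libraries are numbers 97 to 103, and the Mn libraries lie on both sides of that run, at 8, 16, 24, 88, 94 to 96 and 104. The treatments are thus not mixed in number there either, though they do not form 2 separate runs. Number 8 (Mn 2576) lies between the small intestine runs, 16 (Mn 2600) between small intestine and liver runs, and 24 (Mn 2577) between the liver runs.

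In vehicle animals the exporter Slc30a10 was highest in small intestine, intermediate in liver and lowest in brain. Its level ran from 301 to 457 CPM in small intestine (median 380, mean 378 ± 49.4 SD, n = 7), from 51.0 to 85.3 CPM in liver (median 59.8, mean 65.5 ± 12.3) and from 17.2 to 23.3 CPM in brain (median 20.004, mean 20.2 ± 2.41). The 3 ranges lay apart, and within each animal the small intestine held 12.9 to 26.0 times the brain level. In one edgeR quasi-likelihood fit of the 21 vehicle libraries, Slc30a10 exceeded its liver level in small intestine by a log2 difference of 2.10 (SE 0.11, adjusted p = 1.02e-14) and its brain level in liver by 2.40 (SE 0.12, adjusted p = 4.08e-15). Adjusted p-values are Benjamini-Hochberg values over all genes tested, and a gene is called where it is below 0.05. Most genes differ between tissues: 83.4% of 14043 genes were called between liver and brain, 84.9% between small intestine and brain and 68.9% between small intestine and liver, so that a call here sets no gene apart. In bulk tissue, fewer cells of a type and less RNA per cell cannot be told apart.

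Slc39a14, the importer on the blood side, was high in both liver and small intestine and lower in brain. Small intestine held 235 to 313 CPM (median 260, mean 267 ± 24.1), liver 133 to 296 CPM (median 232, mean 218 ± 60.5) and brain 31.4 to 41.4 CPM (median 38.9, mean 37.8 ± 3.27). The ranges of liver and small intestine overlapped, and brain lay below both. Liver exceeded brain by 3.25 (log2, SE 0.15, adjusted p = 5.56e-16) and small intestine exceeded brain by 3.11 (SE 0.15, adjusted p = 1.07e-15). Small intestine and liver differed by −0.14 (SE 0.14, adjusted p = 0.353). That sign depended on the scaling of the libraries, since without any scaling beyond the library total the difference was 0.30 (SE 0.13, adjusted p = 0.0483). Leaving out the scaling moved the liver against brain contrast of all 3 members by −0.73 to −0.72 and the small intestine against liver contrast by 0.44 to 0.45.

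Slc39a8, the importer known from the bile side, was highest in liver. Liver held 22.1 to 47.7 CPM (median 35.2, mean 33.8 ± 8.60), small intestine 7.89 to 11.8 CPM (median 10.1, mean 10.2 ± 1.51) and brain 2.62 to 7.55 CPM (median 4.68, mean 4.99 ± 1.85). Again the 3 ranges lay apart, but the brain values rest on 5 to 20 reads per library, and the SD that counting alone gives there, 1.43 CPM, is most of the spread between animals. Liver exceeded brain by 3.45 (log2, SE 0.19, adjusted p = 1.67e-14) and small intestine by 2.17, the small intestine over liver value being −2.17 (SE 0.17, adjusted p = 2.82e-11). Small intestine exceeded brain by 1.28 (SE 0.23, adjusted p = 1.25e-05). Of the 9 tissue contrasts of the members 8 were called, and the same number was called with DESeq2. The shares of all genes that DESeq2 called are not given here, so its count has no background.

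**Figure D1:**
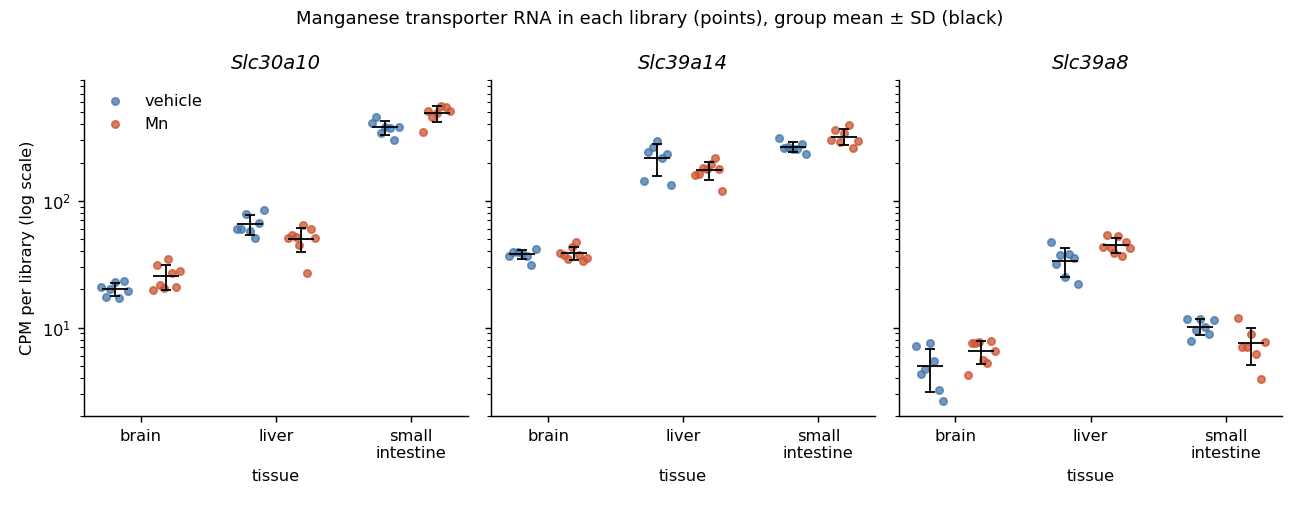
CPM of each transporter (log axis) in every library, by tissue, for vehicle (blue) and Mn (orange) animals, with group mean ± SD in black. Slc30a10 is lowest in brain (vehicle mean 20.2 CPM) and highest in small intestine (378 CPM), Slc39a14 is high in liver and small intestine, and Slc39a8 is highest in liver (33.8 CPM). Vehicle and Mn points overlap in every panel and tissue.

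The balance between exporter and importer RNA differed between tissues in every animal. The ratio of Slc30a10 to Slc39a14 reads was below 1 in all 15 brain and all 15 liver libraries and above 1 in all 14 small intestine libraries. In vehicle animals it ran from 0.441 to 0.744 in brain (median 0.505), from 0.194 to 0.642 in liver (median 0.288) and from 1.08 to 1.76 in small intestine (median 1.46). In Mn animals it ran from 0.479 to 0.838 in brain (median 0.669), from 0.124 to 0.424 in liver (median 0.321) and from 1.14 to 2.09 in small intestine (median 1.44). The vehicle and Mn ranges thus overlapped in each tissue. The highest Mn brain ratio, 0.838, was that of 2576, with 5.16% of the small intestine profile. The highest vehicle liver ratio, 0.642, was that of 2630, with 5.05% of that profile. Reads of other tissues were not taken out of these ratios. Slc39a14 exceeded Slc39a8 in each of the 44 libraries, by 2.86 to 11.9 times in liver, by 4.33 to 15.8 times in brain and by 20.5 to 66.6 times in small intestine.

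Among their families, the transporters took unequal places. In vehicle small intestine Slc30a10 was the most abundant of the 10 ZnT genes and made up 52.4% of their summed CPM, ahead of Slc30a5, a zinc transporter of the secretory pathway (72.4 ± 2.12 CPM). It ranked 2 of 10 in liver, with 26.2% of the sum, after Slc30a9 (68.7 ± 4.78 CPM), and 4 of 10 in brain, with 5.94%. Slc39a14 was the most abundant of the 14 ZIP genes in liver (41.2% of their sum), ahead of the zinc importer Slc39a4 (81.5 ± 10.7 CPM). In small intestine it ranked 2, after Slc39a4 (273 ± 61.7 CPM), which is known as the importer of dietary zinc there. In brain, Slc39a14 ranked 6, and Slc39a10 (66.9 CPM), Slc39a6 (61.3 CPM) and Slc39a12 (52.5 CPM) led. Slc39a8 ranked 6 in liver, 8 in small intestine and 10 in brain. One ZIP gene, Slc39a7, was listed at 0 in all 44 libraries, and whether its entry could take reads is not known. The ZIP ranks and the share of the ZIP sum therefore hold only among the other ZIP genes.

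**Figure D2:**
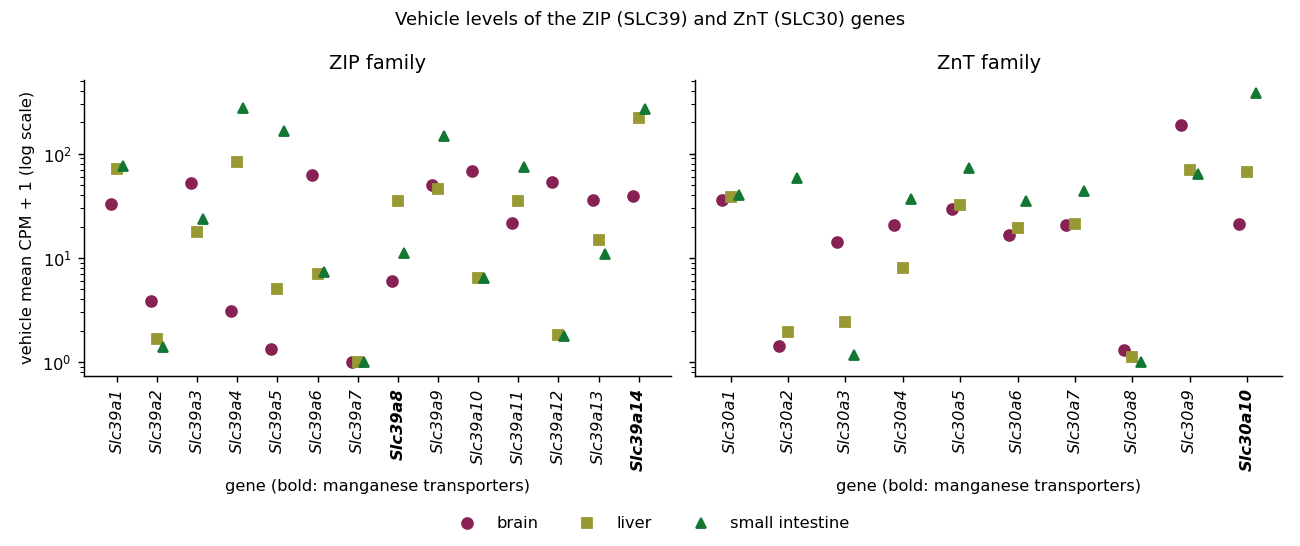
Mean CPM + 1 in vehicle animals (log axis) of the 14 ZIP and 10 ZnT genes in brain (circles), liver (squares) and small intestine (triangles), with the manganese transporters in bold. Slc30a10 leads the ZnT family in small intestine with 378 CPM. Slc39a14 leads the ZIP genes other than Slc39a7, which is listed at 0, in liver with 218 CPM.

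Whether Mn treatment changed the transporters was tested within each tissue, with sex as a covariate. Of the 9 tests (3 genes in 3 tissues) edgeR called 0, while 5 had an unadjusted p below 0.05 and DESeq2 called 2, Slc39a8 in liver and Slc30a10 in small intestine. As background, edgeR called 0.575% of 12872 genes in brain, 1.17% of 10536 in liver and 0.459% of 11770 in small intestine. The shares that DESeq2 called are not given here, so its 2 calls have no such background. In no tissue did the Mn and vehicle ranges of a transporter lie apart. The estimates had opposite signs in liver and small intestine for each of the 3 genes. The share of all genes with opposite signs was not counted, so this sets the 3 genes apart from no others.

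In small intestine Slc30a10 ran from 346 to 558 CPM with Mn (median 507, mean 488 ± 71.7, n = 7), against 301 to 457 CPM in vehicle animals. Of the 7 Mn libraries 5 lay above every vehicle library, and the lowest, Mn 2575, lay inside the vehicle range. The log2 change was 0.41 (SE 0.11, adjusted p = 0.117 by edgeR, unadjusted p = 0.00176). DESeq2 gave 0.41 (adjusted p = 0.0352), and edgeR without the low-count filter 0.40 (adjusted p = 0.000875). Without Mn 2575 the change was 0.48 (adjusted p = 0.0233), and none of the other 13 fits that left out 1 animal gave a call. Over all alternatives the adjusted p ran from 0.000875 to 0.813. Within animals 2572 to 2578 it was 0.19 (SE 0.16, adjusted p = 0.790) and within animals 2600 to 2630 0.63 (SE 0.11, adjusted p = 0.0185). The difference between these 2 sets of animals was not tested.

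Slc39a14 in small intestine ran from 262 to 394 CPM with Mn (median 303, mean 321 ± 46.5), and 3 of the 7 Mn libraries lay above every vehicle library. Its log2 change was 0.30 (SE 0.09, adjusted p = 0.137), with 0.20 and 0.39 in the lower and the higher animal numbers (adjusted p = 0.668 and 0.117). Slc39a8 went the other way, at 3.93 to 11.9 CPM with Mn (median 7.03, mean 7.52 ± 2.45), with 5 of 7 Mn libraries below every vehicle library and Mn 2575 above them all. Its change was −0.38 (SE 0.19, adjusted p = 0.433), from 8 to 38 reads per library, and was −0.19 and −0.77 in the lower and higher animal numbers (adjusted p = 0.888 and 0.217). Without Mn 2602, Mn 2603, vehicle 2627 and vehicle 2630, the small intestine libraries with over 2% of another tissue, it was −0.17 (adjusted p = 0.867). Mn 2575 was thus the lowest Mn library for the exporter and the highest for Slc39a8.

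Markers of other kinds were read beside these values in small intestine. All 12 enterocyte markers had a positive estimate with Mn (0 called, median log2 change 0.16), and their sum was 16065 to 20321 CPM in vehicle and 18479 to 24404 CPM in Mn libraries, with Mn 2575 the lowest of the latter. Of 8 markers of the proximal intestine 6 were positive (0 called, median 0.35, summed 4161 to 5260 CPM in vehicle and 5181 to 6421 CPM in Mn). Of these 8, Slc11a2 (0.85) and Slc40a1 (0.36) are also in the metal handling list below, and Lct (0.75) is also an enterocyte marker. The others were Fabp1 (0.35), Cybrd1 (0.34), Gata4 (0.10), Hnf4g (−0.012) and Onecut2 (−0.12). Of 8 distal markers 6 were tested and 4 were positive (0 called, median 0.19, summed 2504 to 3314 and 2149 to 2780 CPM). All 8 macrophage markers were negative (median −0.30, summed 333 to 469 and 259 to 358 CPM), and C1qb, a complement subunit made by macrophages, fell (−0.52, SE 0.11, adjusted p = 0.0374). Of the 12 pancreatic acinar markers 7 were tested and all were negative (0 called, median −6.21), and they summed to 12091 CPM in vehicle 2627 and to at most 119 CPM in any other small intestine library. The median change over all tested genes was −0.010, and the part of these markers in the transporters' values was not tested.

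In liver Slc30a10 and Slc39a14 had negative estimates with Mn and Slc39a8 a positive one. Slc30a10 ran from 27.0 to 64.0 CPM with Mn (median 51.6, mean 50.4 ± 11.1, n = 8), against 51.0 to 85.3 CPM in vehicle, with 3 of 8 Mn libraries below every vehicle library. Its log2 change was −0.36 (SE 0.15, adjusted p = 0.210), −0.37 in animals 2572 to 2578 and −0.33 in animals 2600 to 2630 (adjusted p = 0.196 and 0.587). The highest vehicle value, 85.3 CPM in 2630, came from the library with 5.05% of the small intestine profile, of which 22.5 CPM is predicted to come from there. The lowest value, 27.0 CPM in Mn 2601, came from the liver with the smallest small intestine share. Of it 0.597 CPM is predicted from other tissues, and 26.4 CPM, still the lowest, remained after subtraction. Vehicle 2627, Mn 2602 and Mn 2603, livers with small intestine shares of 0.365%, 0.373% and 0.4%, held 57.6, 59.6 and 51.1 CPM. After subtraction of the predicted reads the means were 58.2 ± 8.54 CPM in vehicle and 46.7 ± 9.99 CPM with Mn (−0.31, SE 0.14, adjusted p = 0.243). Without vehicle 2627, vehicle 2630 and Mn 2601, the livers with over 2% of another tissue, the change was −0.22 (SE 0.11, adjusted p = 0.495).

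Liver Slc39a14 ran from 120 to 217 CPM with Mn (median 178, mean 174 ± 27.9), and 7 of 8 Mn libraries lay inside the vehicle range of 133 to 296 CPM. Its change was −0.31 (SE 0.15, adjusted p = 0.308), −0.23 in animals 2572 to 2578 and −0.24 in animals 2600 to 2630 (adjusted p = 0.486 and 0.706). Slc39a14 is known as a gene of the acute phase, the liver's response to inflammation, and acute phase genes are given beside it. All 10 acute phase genes had a negative estimate with Mn (median −0.52, against −0.018 over all tested genes), and 1 of them, the serum amyloid gene Saa2, fell (−2.80, SE 0.60, adjusted p = 0.0385). Their sum was 6056 to 16477 CPM in vehicle and 6154 to 11531 CPM in Mn livers. Vehicle 2627 had both the highest sum and the highest Slc39a14 (296 CPM), and vehicle 2630 had the lowest vehicle value of both. Over the 7 vehicle livers the log2 values had Pearson's r = 0.71 (exact permutation p = 0.0861, adjusted p = 0.818 over 38 correlations) and Spearman's rho = 0.82 (exact permutation p = 0.0341, adjusted p = 0.432). Without the 2 animals farthest from the median sum r was 0.51. Over the 8 Mn livers r was 0.37 (exact permutation p = 0.315, adjusted p = 0.845) and rho 0.48 (exact permutation p = 0.243, adjusted p = 0.84). This relation was chosen after the values were seen.

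**Figure D3:**
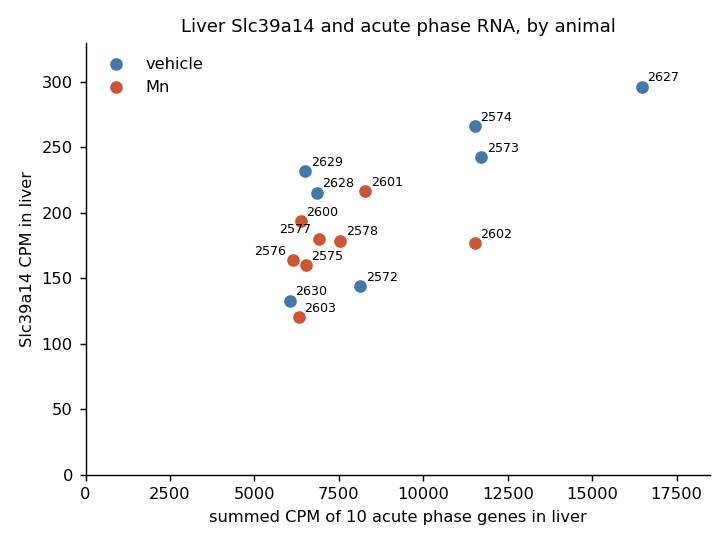
Slc39a14 CPM in liver against the summed CPM of 10 acute phase genes in the same library, for vehicle (blue) and Mn (orange) animals, labelled by animal number. Vehicle 2627 is highest on both axes, and the 3 highest Slc39a14 values are those of vehicle 2627, 2574 and 2573.

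Slc39a8 in liver ran from 36.4 to 53.3 CPM with Mn (median 43.0, mean 44.5 ± 6.03), against 22.1 to 47.7 CPM in vehicle, with 2 of 8 Mn libraries above every vehicle library. Its log2 change was 0.45 (SE 0.12, adjusted p = 0.0669, unadjusted p = 0.00133), the smallest adjusted p of the 9 tests. It was called by DESeq2 (0.45, adjusted p = 0.0280), without the low-count filter (0.46, adjusted p = 0.0198), with the run of animal numbers as a covariate (0.44, adjusted p = 0.0399) and without vehicle 2572 (0.52, adjusted p = 0.0325). Over all alternatives the adjusted p ran from 0.0198 to 0.650. The change was 0.16 in animals 2572 to 2578 (SE 0.13, adjusted p = 0.650) and 0.74 in animals 2600 to 2630 (SE 0.14, adjusted p = 0.189), a difference that was not tested. Without the 3 livers with over 2% of another tissue it was 0.33 (SE 0.11, adjusted p = 0.259). Enterocyte markers were negative in liver for 11 of 11 tested (median −0.65, 1 called, summed 531 to 1654 CPM in vehicle and 407 to 872 CPM with Mn), and the brush border gene Cdhr5 fell (−0.48, adjusted p = 0.0431). Of 12 hepatocyte markers 10 were positive (median 0.18, summed 53272 to 68713 and 60605 to 68833 CPM), and 2 rose, Tdo2 (0.56, adjusted p = 0.0424) and Hpd (0.44, adjusted p = 0.0472), enzymes of tryptophan and tyrosine breakdown. The 8 macrophage markers were all negative in liver (0 called, median −0.30, summed 333 to 816 and 284 to 591 CPM). Their part in the transporters' values was not tested.

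**Figure D4:**
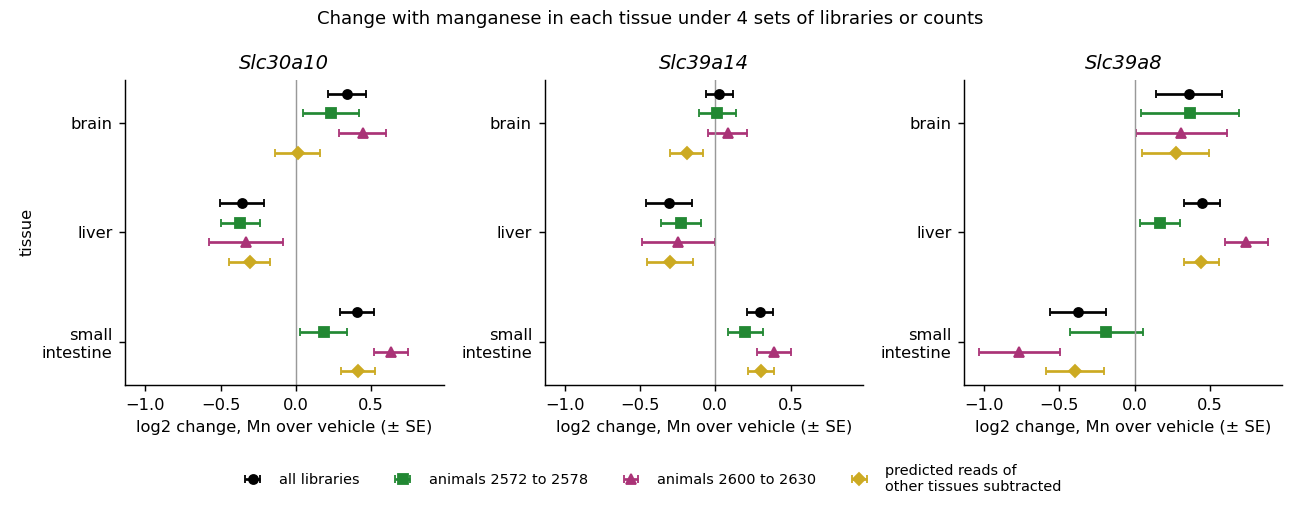
Log2 change of each transporter with Mn (± SE) in each tissue, for all libraries (circles), animals 2572 to 2578 (squares), animals 2600 to 2630 (triangles) and counts with the predicted reads of other tissues subtracted (diamonds). The small intestine and liver estimates of each gene lie on opposite sides of 0, and the brain estimate of Slc30a10 moves from 0.34 to 0.011 with subtraction.

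In brain Slc30a10 was not called with Mn, and 7 of the 8 Mn libraries held reads of small intestine or liver. It ran from 19.6 to 34.5 CPM with Mn (median 24.3, mean 25.4 ± 5.598, n = 8), against 17.2 to 23.3 CPM in vehicle, and 4 of 8 Mn libraries lay above every vehicle library. The log2 change was 0.34 (SE 0.13, adjusted p = 0.405, unadjusted p = 0.0160), with 0.23 in animals 2572 to 2578 and 0.44 in animals 2600 to 2630 (adjusted p = 0.571 and 0.0715). The 2 highest libraries were Mn 2600 (34.5 CPM) and Mn 2576 (31.4 CPM), the females with the largest small intestine shares, where the shares predict 11.7 and 22.5 CPM from other tissues. After subtraction the brain level was 20.1 ± 2.36 CPM in vehicle and 19.8 ± 4.99 CPM with Mn, and the change was 0.011 (SE 0.15, adjusted p = 0.999). That value rests on Mn 2576, where subtraction left 8.91 CPM, below the lowest vehicle brain (17.2 CPM). Without 2576 the subtracted Mn mean was 21.4 ± 2.53 CPM (n = 7) and the change 0.12 (SE 0.11, adjusted p = 0.923), in a fit chosen after the values were seen. Mn 2601 and 2603, at 24.0 and 25.1 CPM after subtraction, stayed above every vehicle brain, while Mn 2577, 2578 and 2602, with over 2% of the liver profile, lay inside the vehicle range before and after it. The one Mn brain with no such reads, 2575, was the lowest at 19.6 CPM, and the fit with it as the lone Mn library gave −0.055 (SE 0.26, adjusted p = 0.961), assuming that it varies like the vehicle brains.

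Slc39a14 in brain ran from 33.7 to 47.4 CPM with Mn (median 37.5, mean 38.5 ± 4.62) and 31.4 to 41.4 CPM in vehicle, a change of 0.026 (SE 0.09, adjusted p = 0.989). With the predicted reads subtracted the change was −0.19 (SE 0.11, adjusted p = 0.828), and 4 of 8 Mn brains then lay below every vehicle brain, the lowest being 2576 at 21.8 CPM. Without 2576 it was −0.13 (SE 0.10, adjusted p = 0.890). Slc39a8 in brain ran from 4.25 to 7.78 CPM with Mn (median 7.03, mean 6.52 ± 1.36), from 8 to 24 reads per library, a change of 0.36 (SE 0.22, adjusted p = 0.752). Of its Mn mean the shares predict 0.687 CPM, and subtraction left 0.27 (SE 0.22, adjusted p = 0.915). Hepatocyte markers summed to 23.3 to 131 CPM in vehicle and 35.6 to 2955 CPM in Mn brains, and 7 of the 9 tested rose there (median over the 9 of 5.01). Among them were Cps1 (5.47), a urea cycle enzyme, Apoc3 (3.88), an apolipoprotein, and the fibrinogen chains Fgb (5.26) and Fgg (5.55), with adjusted p from 9.15e-05 to 0.000112. Enterocyte markers summed to 17.0 to 26.6 and 20.7 to 1002 CPM, and 1 of the 4 tested rose, Apoa4, a lipid carrier of the gut (5.36, adjusted p = 0.0019). The 8 neuron markers were all tested (0 called, median 0.041, summed 4740 to 5116 and 4657 to 5400 CPM). The 8 oligodendrocyte markers were all positive (0 called, median 0.17, summed 6808 to 8007 and 7361 to 9567 CPM).

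**Figure D5:**
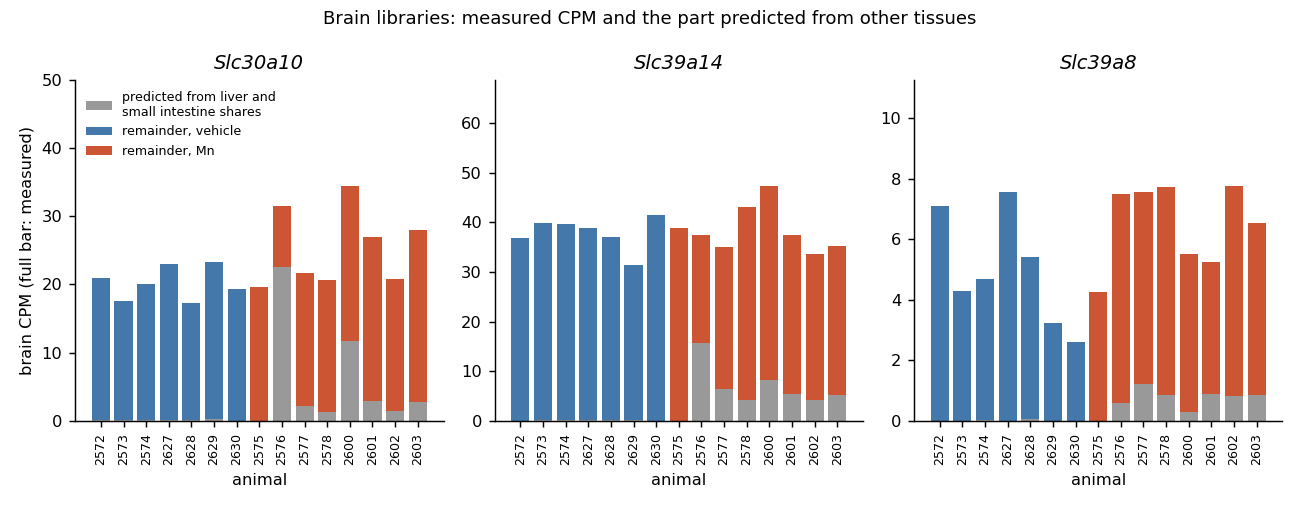
Brain CPM of each transporter in every animal (full bar), split into the part predicted from the liver and small intestine shares (grey) and the remainder (blue for vehicle, orange for Mn). The grey part of Slc30a10 is 22.5 of 31.4 CPM in Mn 2576 and 11.7 of 34.5 CPM in Mn 2600, and is close to 0 in the vehicle animals.

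The Mn effects of the tissues were then compared in one fit of all 44 libraries. One of the 9 differences was called by edgeR (5 at an unadjusted p below 0.05, and 2 with DESeq2). The effect on Slc30a10 differed between liver and brain, with liver the lower (log2 difference −0.72, SE 0.21, adjusted p = 0.0291). There edgeR called 5.77% of 14984 genes, and the share that DESeq2 called is not given here. With the predicted reads subtracted the difference was −0.32 (SE 0.21, adjusted p = 0.523), and −0.43 (SE 0.20, adjusted p = 0.301) with brain library 2576 left out as well, neither of them called. Without the 7 brain libraries over 1% of another tissue only Mn 2575 remains as a Mn brain, and the estimate of −0.26 (SE 0.41, adjusted p = 1.0) takes its spread from the other groups, so that it says little on this difference. Leaving out single animals gave −0.82 to −0.60, and the call was lost without 2573, 2574, 2576, 2600, 2601, 2603 or 2630 (adjusted p up to 0.0872).

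Between small intestine and liver, where 0.0734% of genes were called, the differences of the 3 transporters were not called. They were 0.74 for Slc30a10 (SE 0.19, adjusted p = 0.109), 0.58 for Slc39a14 (SE 0.18, adjusted p = 0.179) and −0.84 for Slc39a8 (SE 0.23, adjusted p = 0.131). The first was called by DESeq2 (0.76, adjusted p = 0.0271), without the low-count filter (0.74, adjusted p = 0.0408), without animal 2575 (0.82, adjusted p = 0.0484) and with predicted reads subtracted and brain library 2576 left out (0.71, adjusted p = 0.0497). Between small intestine and brain, where 3.83% of genes were called, they were 0.016 for Slc30a10 (SE 0.22, adjusted p = 0.997), 0.22 for Slc39a14 (SE 0.19, adjusted p = 0.760) and −0.78 for Slc39a8 (SE 0.28, adjusted p = 0.142). The last was called without animal 2575 (−0.99, adjusted p = 0.0302). For the other liver against brain differences, Slc39a14 gave −0.36 (adjusted p = 0.319) and Slc39a8 0.056 (adjusted p = 0.956). These 3 tissue comparisons share their libraries pairwise.

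The sexes were compared in the same way. Of the 9 sex by treatment terms 0 were called by edgeR (1 at an unadjusted p below 0.05, no other tool run), against 0.0622% of genes in brain, 0.038% in liver and 0% in small intestine. The smallest unadjusted p was that of Slc39a14 in brain (male minus female change −0.37, SE 0.16, adjusted p = 0.892). In liver, Slc30a10 was at 59.2 ± 7.96 CPM in the 3 vehicle females and 56.0 ± 7.04 in the 3 Mn females, and at 70.3 ± 13.7 in the 4 vehicle males and 47.0 ± 12.3 in the 5 Mn males (term −0.53, SE 0.28, adjusted p = 0.879). Both the highest vehicle male, 2630, and the lowest Mn male, 2601, belong to the livers with over 2% of another tissue. Between males and females, 0 of the 9 differences were called, where 0.109% of genes in brain, 8.83% in liver and 0.153% in small intestine were. Liver Slc39a8 was the nearest (−0.30, SE 0.12, edgeR adjusted p = 0.124), over vehicle and Mn livers with treatment as a covariate. It was at 40.3 ± 6.57 CPM in vehicle females and 28.9 ± 6.74 CPM in vehicle males. With Mn it was at 49.6 ± 5.48 CPM in females and 41.4 ± 4.11 CPM in males.

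Whether an animal high in one tissue was high in another was asked within vehicle and within Mn animals. Over 18 such pairings r ran from −0.58 to 0.86 with a median of 0.11, and 10 were positive. None passed after adjustment over the family of 38 correlations (smallest adjusted p = 0.234 among these), and 1 had an unadjusted exact permutation p below 0.05. That was Slc39a14 in brain and small intestine of the 7 Mn animals, with r = 0.86 (exact permutation p = 0.0125) and rho = 0.89 (exact permutation p = 0.0123). Without the 2 animals farthest from the median r was 0.71. Mn brains 2576 and 2600 hold predicted small intestine reads, 15.7 of 37.5 CPM and 8.16 of 47.4 CPM of Slc39a14, and the vehicle animals gave r = −0.53 (exact permutation p = 0.227). For the exporter, brain and small intestine gave r = 0.57 with Mn (exact permutation p = 0.162) and −0.56 with vehicle (exact permutation p = 0.187).

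Liver and small intestine, the 2 organs of Mn excretion, did not show a passing relation for any transporter. For Slc30a10 r was 0.47 with Mn (n = 7, exact permutation p = 0.298) and −0.33 with vehicle (exact permutation p = 0.474). Slc39a14 gave 0.33 and −0.096 (exact permutation p = 0.517 and 0.831), and Slc39a8 gave −0.45 and −0.18 (exact permutation p = 0.311 and 0.680). Between transporters within a tissue, 18 pairings gave r from −0.79 to 0.79 with a median of −0.050, and none passed (smallest adjusted p = 0.173). The largest was Slc30a10 with Slc39a8 in Mn liver, with r = 0.79 (n = 8, exact permutation p = 0.00456), rho = 0.86 (exact permutation p = 0.0107) and r = 0.68 without the 2 farthest animals. The same pair gave r = −0.39 in vehicle liver (exact permutation p = 0.390) and −0.79 in Mn small intestine (n = 7, exact permutation p = 0.0526). Libraries of a group differ in depth and in reads of other tissues, and the transporters of one tissue are read from the same library. Beyond the division by the library total, these coefficients do not take this out.

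Other genes of metal transport were read beside the members, from lists chosen by function. Of the 12 other ZIP genes 8 were tested in brain and 9 each in liver and small intestine, and 0 were called in any tissue (0, 2 and 0 at an unadjusted p below 0.05, medians −0.028, 0.050 and −0.030). Of the 9 other ZnT genes 7, 6 and 7 were tested and 0 were called (0, 2 and 1 unadjusted, medians 0.0063, −0.016 and 0.0041). Of 16 other genes of manganese and divalent metal handling 14, 14 and 15 were tested and 0 were called (6, 5 and 3 unadjusted, medians 0.19, −0.037 and 0.085). The median over all tested genes was −0.0073 in brain, −0.018 in liver and −0.010 in small intestine. Slc11a2 (DMT1), the iron importer of the gut that also carries Mn, came nearest. In small intestine it averaged 220 ± 60.9 CPM without and 387 ± 108 CPM with Mn (0.85, SE 0.19, adjusted p = 0.0543).

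Slc40a1 (ferroportin), the iron exporter, was at 559 ± 72.1 and 701 ± 99.9 CPM in small intestine (0.36, SE 0.11, adjusted p = 0.167). Tfrc, the transferrin receptor, was at 93.0 ± 14.8 and 124 ± 21.3 CPM there (0.44, SE 0.11, adjusted p = 0.0915) and at 65.6 ± 8.36 and 85.0 ± 10.8 CPM in brain (0.38, SE 0.10, adjusted p = 0.117). Atp2c1, the Golgi pump for calcium and Mn, was at 45.9 ± 6.23 and 43.5 ± 3.65 CPM in small intestine (−0.040, SE 0.09, adjusted p = 0.913). Slc41a2, a divalent cation transporter, had the smallest adjusted p of the list in liver (−1.04, SE 0.26, adjusted p = 0.0566). Of 16 HIF target genes 14, 13 and 15 were tested in brain, liver and small intestine, and 0 were called (1, 4 and 4 unadjusted, medians −0.059, −0.019 and 0.11). In small intestine 9 of the 15 were positive, with Egln3, a prolyl hydroxylase induced by HIF, at 0.34 (adjusted p = 0.233) and Vegfa, the vascular growth factor, at −0.053 (adjusted p = 0.908).

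The genes whose levels followed each transporter most closely were listed by Pearson's r of log2(CPM + 1) over the 44 libraries, among 12396 genes with a mean of at least 5 CPM. These r values mostly follow the tissue differences and are a description. Among the genes most like Slc30a10 were Actn4 (r = 0.986), Irak4 (0.984), Myo5b (0.983) and Txnrd1 (0.981), all highest in small intestine. Slc39a14 was most like P4hb (0.978), Magt1 (0.978), Ldha (0.976), Mfsd4b3 (0.976) and Ifih1 (0.976), which were low in brain. Slc39a8 was most like Agtr1a (0.970), Igfbp4 (0.968), Nit2 (0.960), Akr1d1 (0.959) and Shmt2 (0.959), all highest in liver. Within the tissue of its highest vehicle mean in CPM, which for Slc39a14 is small intestine only without scaling between tissues, and after centring on the group means, Slc30a10 was most like Gpr155 (0.875), Acsl6 (0.816) and Atp2b1 (0.801) over 14 small intestine libraries. Slc39a14 was most like Tnfaip3 (0.885), Rab21 (0.834) and Hadhb (0.828) over the same libraries. Over 15 liver libraries Slc39a8 was most like Ggct (0.933), Larp7 (0.848) and Cggbp1 (0.829).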

How the data were processed

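Libraries were made with 3′ TagSeq, per the labels' protocols. The values used were whole-number counts as deposited by the authors for each gene, with STAR 2.7.10b, HTSeq 0.2.0, FastQC 0.12.0, DESeq2 1.12.3, R 4.2.2 and build GRCm39 named in the submitters' processing notes. Whether molecular identifiers or strand were used in counting is not stated in the labels or headers. Library sizes and tests exclude 92 spike-in entries and the unassigned classes of no feature (1.84% to 4.14%), ambiguous (2.06% to 2.53%) and multi-mapped reads (23.8% to 34.8%). Symbols came from a GRCm38 annotation (52083 of 55416 identifiers matched).

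Levels are CPM on assigned reads, mean ± SD over animals. Tests were edgeR 4.0.16 quasi-likelihood fits in R 4.3.3 with TMM scaling, filterByExpr (minimum count 10, minimum total 15), two-sided, with a Benjamini-Hochberg adjusted p below 0.05 as threshold. Alternatives included DESeq2 1.42.0, RLE scaling, no filter, within-number-run fits, each animal left out, shares of other tissues as covariates and predicted reads subtracted. A share was the median ratio over genes of at least 100 CPM in the source tissue, at most 0.5% of that in the lowest target library and at most 5% in the third tissue, and a predicted read count was the share times the source level. Only the edgeR fit of Mn against vehicle within each tissue was run on simulated counts, which held no reads of other tissues. The other steps were not tested on simulated data. Correlations used log2(CPM + 1) and exact two-sided permutation of the pairings (Python 3.11.15, scipy 1.17.1). No 2 libraries of a group were duplicates (lowest chi-square per gene 1.43).

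The 3 tissues of an animal share its number in the labels, which pairs them. Each animal's deviations from its group means over 6720 genes correlated with a median of 0.12 (brain, liver), 0.13 (brain, small intestine) and 0.22 (liver, small intestine). The ranges were −0.13 to 0.43, −0.12 to 0.31 and 0.074 to 0.42. Tissues of different animals were not compared in this way, so these values do not test the pairing. The members and gene lists were chosen with earlier results of these data known. Named were the 3 members, up to 4 called genes per list and tissue, the family genes, Slc11a2, Slc40a1, Tfrc and Atp2c1, and the most alike genes, of which 1 is not reported here. Slc41a2, Egln3, Vegfa and Gm2061 were chosen after their values were seen.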

Additional observations from a re-analysis of the deposited data

Results flagged for a closer look

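The effect of Mn on Slc30a10 differed between liver and brain, with a log2 difference of −0.72 (SE 0.21, edgeR adjusted p = 0.0291), with brain at 0.34 and liver at −0.36. The difference was −0.32 with the predicted reads of other tissues subtracted, a step that takes Mn brain 2576 to 8.91 CPM, and −0.43 with that library left out as well, and it was called in neither. In the 18 groups of 7 or 8 libraries no library of a transporter stood far enough from the others to pass Dixon's limit, where chance alone would give about 1 in 20.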

How the results depend on the processing

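For the transporters' tests, settings not named here kept the direction and the side of the threshold. The Mn change became called for Slc39a8 in liver with DESeq2 (0.45), no filter (0.46) and the run of animal numbers as covariate (0.44), and for Slc30a10 in small intestine with DESeq2 (0.41), no filter (0.40) and in animals 2600 to 2630 (0.63). The Slc30a10 difference between small intestine and liver effects became called with no filter (0.74) and DESeq2 (0.76), and that between liver and brain was no longer called without the brain libraries over 1% of another tissue (−0.26) (1 Mn brain left) or with predicted reads subtracted (−0.32). With predicted reads subtracted and brain library 2576 left out, chosen after seeing the data, these 2 differences were 0.71 (called) and −0.43 (not called), and Slc39a14 in brain was −0.13. In brain, Slc30a10 was −0.055 and Slc39a8 −0.28 without the libraries over 1% of another tissue, Slc39a8 −0.18 with the shares as covariates, and Slc39a14 −0.11 in males alone, −0.19 with predicted reads subtracted and −0.035 to 0.055 without single animals (below 0 without Mn 2600 or vehicle 2629). The sex by treatment terms in small intestine changed sign without single animals for Slc30a10 (−0.25 to 0.10) and Slc39a8 (−0.44 to 0.033). Slc39a14 in vehicle small intestine against liver was 0.30 without scaling. Among tissue by treatment differences, Slc30a10 small intestine minus brain was −0.024 with the animal as replicate block and −0.052 to 0.085 without single animals, and Slc39a8 liver minus brain −0.14 to 0.16 without single animals. Without single animals the range was −0.82 to −0.60 for Slc30a10 liver minus brain, 0.63 to 0.82 for Slc30a10 small intestine minus liver, −0.99 to −0.64 for Slc39a8 small intestine minus brain, 0.37 to 0.52 for Slc39a8 in liver and 0.35 to 0.48 for Slc30a10 in small intestine. The replicate block kept the Slc30a10 liver minus brain call (−0.70, adjusted p = 0.0327) and changed no other call of a member, while the small intestine minus liver count over all genes went from 11 to 3. The cause of these moves was not tested.

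Levels on TMM scaling over all 44 libraries moved by more than 1 SD in brain and liver, because liver factors (0.657 to 0.791) were below those of brain (1.23 to 1.37). Vehicle and Mn means were then 14.99 and 19.5 CPM for Slc30a10 in brain, 88.2 and 70.2 in liver, 28.1 and 29.5 for Slc39a14 in brain, 295 and 243 in liver, 45.8 and 62.1 for Slc39a8 in liver, and 4.99 for Slc39a8 in Mn brain. Of the correlations, 3 changed sign with TMM scaling, Slc39a14 with Slc39a8 in vehicle liver (0.090), Slc30a10 with Slc39a14 in vehicle small intestine (0.19) and Slc30a10 with Slc39a8 in Mn brain (0.080). Counts of called genes moved widely: with Mn in brain from 74 to 0 (shares as covariates) and 1607 (animals 2600 to 2630), in liver from 123 to 4 (the same animals) and 519 (no filter), in small intestine from 54 to 4 (males alone) and 521 (no filter). Without single animals they were 30 to 124, 35 to 371 and 12 to 120. DESeq2 gave no adjusted p for Slc39a8 in small intestine. Slc39a8 had 5 to 24 reads per brain library, which limits its change there to an SE of 0.22.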

Other observations

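In small intestine the ratio of Slc30a10 to Slc39a8 reads was 32.7 to 57.9 in the 7 vehicle libraries (median 35.0) and 29.1 to 139 in the 7 Mn libraries (median 66.8), with Mn 2575 the lowest. In liver the same ratio was 1.25 to 3.85 in vehicle (median 1.90) and 0.740 to 1.26 with Mn (median 1.19). These ratios rest on few Slc39a8 reads in small intestine, 8 to 38 per library, and were not tested.

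Gm2061, a non-coding RNA annotated in GENCODE on the strand opposite to Slc30a10 and overlapping it, was read in small intestine at 24.0 to 71.4 CPM in vehicle (mean 43.9 ± 17.8, n = 7) and 42.7 to 68.8 CPM with Mn (mean 49.8 ± 9.25, n = 7). In vehicle brain and liver it averaged 2.85 and 2.62 CPM. It was higher in small intestine than in brain by 4.23 (log2, SE 0.29), and its change with Mn in small intestine was 0.24 (SE 0.17, adjusted p = 0.634 by edgeR). No source used here gives the strand setting of the counting. How reads were assigned to Gm2061 or Slc30a10, or left out as ambiguous, where the 2 overlap is therefore not known. Gm2061 was chosen after its values were seen.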
